A study of Mus musculus with 20 samples.

Results

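The guanylate-binding proteins (Gbps) of the mouse were followed through 20 RNA-seq libraries of macrophages in 2 experiments. Members were the 10 genes named Gbp2, Gbp2b, Gbp3, Gbp4, Gbp5, Gbp6, Gbp7, Gbp8, Gbp9 and Gbp10, picked by name out of the 56748 genes listed in each count table. In the iNOS experiment, wildtype and iNOS KO cells were either left unstimulated or exposed to 50 ng/mL of LPS plus IFNγ over 48 h, and each of these 4 groups has 3 libraries. By the labels these are bone marrow-derived macrophages (BMDM) of C57BL/6J mice 6 to 12 weeks old, male or female, given 30 ng/mL of IFNγ, whereas the study's methods place this RNA-seq in the mouse macrophage line RAW264.7. If BMDM, the marrow was pooled by genotype before culture. In the Akr1a1 experiment, wildtype and Akr1a1 KO RAW264.7 cells were compared in the same 2 states (4 groups), with the same LPS dose and time, 10 ng/mL of IFNγ and 2 libraries per group, which the study calls independent clones. Knockouts in RAW264.7 cells were made by CRISPR-Cas9 and grown from single sorted cells. The iNOS KO mice named by the study are of the strain B6.129P2-Nos2tm1Lau/J, which carries its Nos2 allele in the germline, and the wildtype groups are listed with no edit. iNOS is the enzyme, encoded by Nos2, that makes nitric oxide in activated macrophages.

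Gbps are large GTPases of the dynamin superfamily whose genes are among those most strongly switched on by interferons, in part through IRF1. The proteins assemble on the membranes of vacuoles that hold pathogens, and on bacteria in the cytosol. There they help to break the vacuole or the bacterial surface, which exposes LPS and DNA to caspase-11 and AIM2. Some members are anchored to membranes by a prenyl group on their last residues. In the mouse the genes lie in 2 clusters, 1 on chromosome 3 and 1 on chromosome 5.

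In the table, Gbp5 (ENSMUSG00000105504, 142199739 to 142228105), Gbp7 (ENSMUSG00000040253, 142236103 to 142255910), Gbp3 (ENSMUSG00000028268, 142265787 to 142278970), Gbp2b (ENSMUSG00000040264, 142300608 to 142324940) and Gbp2 (ENSMUSG00000028270, 142326363 to 142343769) follow each other on the plus strand of chromosome 3. On the minus strand of chromosome 5 lie Gbp8 (ENSMUSG00000034438, 105162016 to 105287406), Gbp9 (ENSMUSG00000029298, 105225496 to 105287405), Gbp4 (ENSMUSG00000079363, 105263633 to 105287452), Gbp10 (ENSMUSG00000105096, 105363565 to 105387399) and Gbp6 (ENSMUSG00000104713, 105418568 to 105441564). All 10 are listed as protein-coding. The table names no genome build, so these positions are only as it lists them.

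Promoters of the 5 members of chromosome 3 are shown because every one of the 10 members was induced, and interferon-responsive genes are known to be read from short motifs close to their starts. RefSeq sequence was at hand for these 5 (GRCm38.p6) and not for Gbp4, Gbp6, Gbp8, Gbp9 and Gbp10. The 250 bases before each start were searched on both strands for TTCNNNGAA, the core of a gamma activated site (GAS), and for the core of an interferon-stimulated response element (ISRE), which is GAAA, any pair of bases and GAAA again. All ISRE matches lay on the minus strand, so each reads here as TTTC, a pair of bases and TTTC. Capitals mark the motifs, and each stretch runs 5′ to 3′ on the plus strand of chromosome 3.
Gbp5 (chr3:142496684-142496900): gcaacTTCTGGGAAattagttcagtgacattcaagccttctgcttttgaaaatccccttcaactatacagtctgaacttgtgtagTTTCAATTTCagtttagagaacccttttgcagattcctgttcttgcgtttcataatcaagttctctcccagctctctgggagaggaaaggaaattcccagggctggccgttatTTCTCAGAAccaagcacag
Gbp7 (chr3:142530220-142530302): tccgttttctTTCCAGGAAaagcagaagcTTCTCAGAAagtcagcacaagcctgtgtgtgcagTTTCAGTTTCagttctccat
Gbp3 (chr3:142559989-142560024): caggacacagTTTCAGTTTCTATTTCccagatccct
Gbp2b (chr3:142594700-142594729): gtacttctaaTTTCACTTTCttctttatca
Gbp2 (chr3:142620594-142620623): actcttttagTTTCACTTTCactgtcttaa
An ISRE core was present in all 5, whereas 2.98% of the 32851 promoters in the table hold one in these 250 bases. Gbp5 and Gbp7 each held 2 GAS cores as well, and 7.02% of all promoters hold at least 1. Both kinds together were found in 0.332% of promoters. The ISRE core of Gbp2 and of Gbp2b has the same 10 letters, but it ends 50 bases before the start in Gbp2 and 128 bases before it in Gbp2b. In Gbp3 a pair of ISRE cores overlaps. A second start listed for Gbp3 had neither motif in its window. These matches describe letters only.

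Some members share sequence, which bears on how reads can be assigned to them. Of the distinct 100-base windows in the annotated transcripts (GENCODE, GRCm38), 73.5% of those of Gbp10 and 64.5% of those of Gbp6 occur unchanged in another gene, mainly in each other and in Gm43302. The share was 10% for Gbp7, 4.39% for Gbp8 and 0 to 1.65% for the other members. The values of Gbp6 and Gbp10 are therefore uncertain as separate genes. In the table the spans of Gbp4, Gbp8 and Gbp9 overlap on the same strand by 23773 to 61910 bases, so their division of reads is uncertain too.

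Total counts ran from 15072109 to 18878107 per library in the iNOS experiment and from 11876719 to 44583327 in the Akr1a1 experiment. Nos2 stood at 10370 to 11533 CPM (counts per 1000000 of the TMM-scaled library size) in stimulated wildtype libraries and at 870 to 912 CPM in stimulated iNOS KO libraries, with 0 counts in unstimulated iNOS KO libraries. Akr1a1 was at 576 and 675 CPM in stimulated wildtype against 370 and 212 CPM in stimulated Akr1a1 KO RAW264.7 libraries, a difference that did not pass the test in edgeR (adjusted p = 0.64). Unstimulated it was at 206 and 21.8 CPM in Akr1a1 KO against 427 and 488 CPM in wildtype (adjusted p = 0.56), so transcript remained in every library labelled Akr1a1 KO. The study screened its KO clones for the protein by immunoblot, and transcript counts do not measure protein. Of 10 macrophage markers, 8 to 10 reached 1 CPM in every group, with Mrc1 at 0 in unstimulated wildtype and Mertk at 0 in unstimulated Akr1a1 KO RAW264.7 libraries. Pycard, which encodes the adaptor ASC that RAW264.7 cells are known to lack, averaged 0.081 to 0.76 CPM over the groups labelled BMDM and 0.11 to 0.36 CPM over the RAW264.7 groups. Stimulated iNOS KO replicate B stood apart from its group, with a mean correlation of log2 CPM to the others of 0.974 against 0.984 and 0.986 for C and A. Unstimulated replicate B of both RAW264.7 genotypes is called stimulated in its title and unstimulated in its treatment field, which was followed.

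The stimulation of wildtype cells in the iNOS experiment asked how far the family responds to LPS and IFNγ. All 10 members rose, from nearly nothing to a joint share of 0.850% to 0.942% of all counts. In unstimulated wildtype libraries no member had more than 24 counts, the highest being Gbp3 in replicate B, and the family made up 0.000183% to 0.000288% of counts. The share of genes called higher in this comparison was 32.4% of 18691 tested, at an adjusted p under 0.05 (quasi-likelihood test of edgeR, Benjamini-Hochberg adjustment over all genes tested), and the largest adjusted p among members was 1.5e-11. The median log2 fold change was 12.37 over members and 0.07 over all genes tested. In bulk RNA, more responding cells and more RNA per cell cannot be told apart. Because unstimulated counts were so few, the sizes of these folds are loose, and they are given from summed counts with a 95% exact binomial interval that covers counting error only.

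Gbp2b, also called Gbp1, is a prenylated member whose inducibility is known to differ between inbred strains. Its CPM was 0.15, 0.45 and 0.18 in the unstimulated wildtype libraries A, B and C and 4235, 3938 and 4177 in the stimulated ones. It was the member with the most counts after stimulation, and rose 16191-fold (9650 to 29616), from 14 to 179719 counts. Gbp2, a prenylated member needed for control of Toxoplasma, rose 6068-fold (3548 to 11397), to 1396, 1428 and 1472 CPM. Gbp5, known to promote inflammasome assembly, had 1 count in the 3 unstimulated libraries together and 1434 to 1477 CPM after stimulation, a ratio of 80433 (14436 to 3177000). Gbp4 likewise went from 1 count to 1699 to 1852 CPM, a ratio of 97525 (17503 to 3852080). With a single count to divide by, these last ratios say little beyond a rise from near 0. Gbp3 and Gbp7 had the highest unstimulated levels, 0.55 to 1.33 and 0.50 to 0.70 CPM, and rose 945-fold (710 to 1286) and 1170-fold (824 to 1722). Gbp7 has been implicated in the control of Toxoplasma and of bacteria within vacuoles. Gbp8, with 0 counts in every unstimulated wildtype library, was at least 664-fold higher after stimulation (against a floor of 3 counts over the group), at 31.4 to 39.0 CPM. Gbp6 went from 2 counts to 37.0 to 47.9 CPM, a ratio of 1157 (320 to 9563). Gbp9 went from 3 counts to 196 to 241 CPM (3878, 1327 to 18810) and Gbp10 from 1 count to 137 to 157 CPM (7918, 1421 to 312802). Stimulated and unstimulated libraries overlapped in none of the 10 members, as in 67.8% of all genes.

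**Figure D1:**
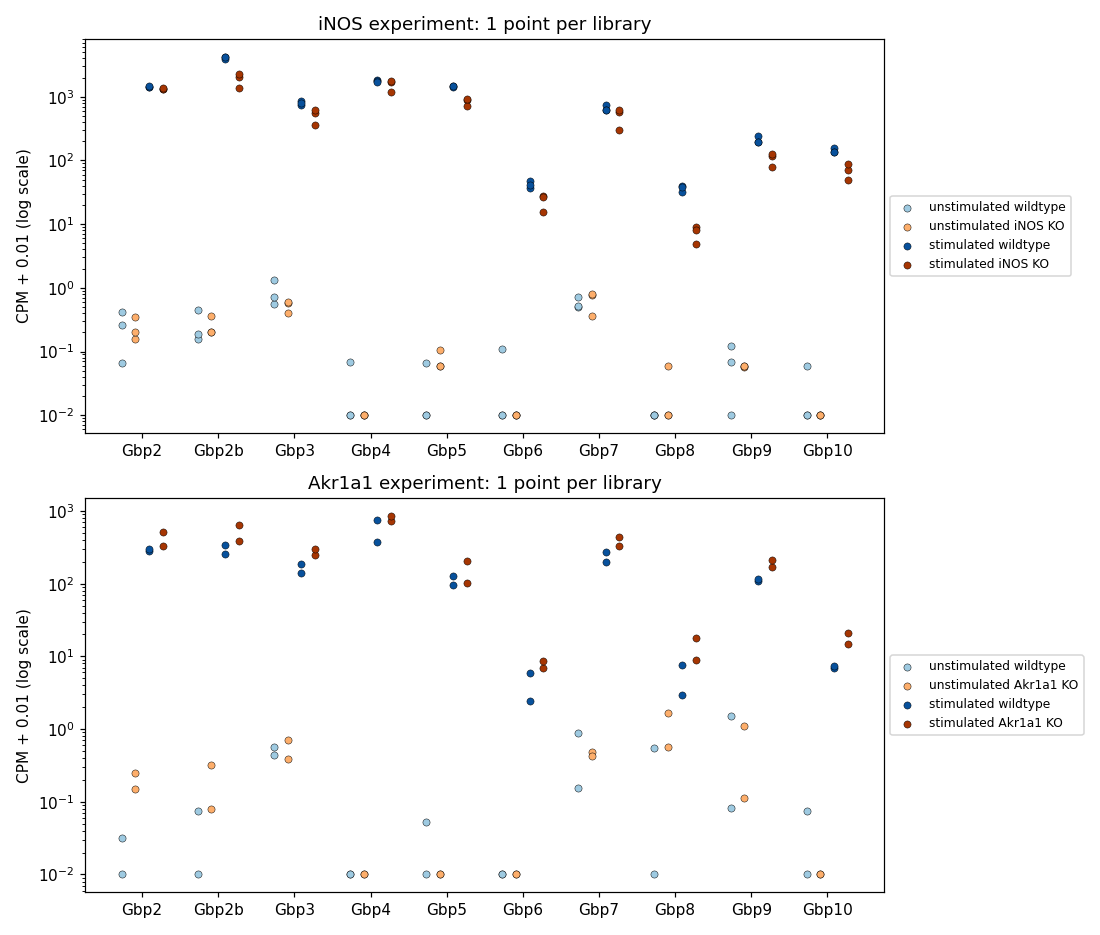
Level of each member in every library, as CPM + 0.01 on a log axis, with 1 point per library and colours for the 4 groups of each experiment. All stimulated libraries lie above all unstimulated ones for every member in both experiments (67.8% and 57.4% of all genes did not overlap in wildtype and iNOS KO cells, and 68.2% and 72% in wildtype and Akr1a1 KO RAW264.7 cells), and stimulated iNOS KO points lie below wildtype for 9 members and overlap it for Gbp4, for example 1355 to 2250 against 3938 to 4235 CPM for Gbp2b.

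In iNOS KO cells the same stimulation also raised all 10 members, against 27.3% of all genes called higher (median log2 fold change 12.06 over members and -0.00032 over all genes). Gbp2 rose 5895-fold (3513 to 10784), from 14 to 62125 counts, and Gbp2b 7803-fold (4731 to 13942). Gbp4 had 0 counts in all unstimulated iNOS KO libraries and was at least 32072-fold higher after stimulation. Gbp6 and Gbp10, also at 0, were at least 480-fold and 1436-fold higher. Gbp8 went from 1 count to 344, a ratio of 457 (81.5 to 18103). Gbp3 rose 1007-fold (713 to 1473) and Gbp7 798-fold (584 to 1123), with intervals that overlap those in wildtype cells. Gbp5 rose 12955-fold (5059 to 47549) from 4 counts, and Gbp9 went from 3 counts to 5003, a ratio of 2216 (758 to 10747). The family then took 0.649%, 0.479% and 0.692% of counts in the stimulated iNOS KO replicates A, B and C, all below the lowest stimulated wildtype library.

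Levels of different members were compared per kilobase of the gene length listed in the table. In stimulated wildtype libraries of the iNOS experiment Gbp2b led with 1458 ± 55.8 CPM per kilobase (SD, n = 3), followed by Gbp2 with 569 ± 15.3. Gbp3 (247 ± 18.3) and Gbp4 (236 ± 10.2) came next and overlapped each other, and Gbp5 (220 ± 3.5) lay just below both without overlap. Gbp7 was at 117 ± 11.1 CPM per kilobase. Gbp9 (40.9 ± 5.0) and Gbp10 (37.1 ± 3.0) overlapped each other, and Gbp8 (10.5 ± 1.2) and Gbp6 (7.06 ± 0.92) were the lowest. In stimulated iNOS KO libraries Gbp2b no longer stood alone, since Gbp2b (666 ± 165) and Gbp2 (534 ± 13.4 CPM per kilobase) overlapped, and Gbp8 (2.13 ± 0.62) lay below Gbp6 (3.88 ± 1.1). Gbp2b made up 38.1% to 39.2% of all member counts in stimulated wildtype libraries and 25.1% to 28.9% in stimulated iNOS KO libraries.

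**Figure D2:**
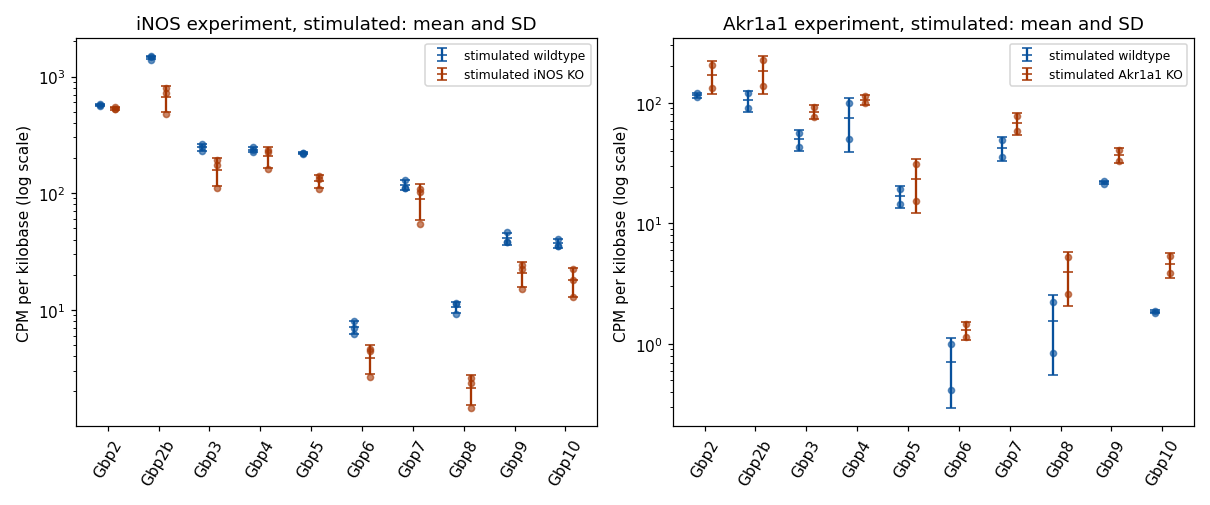
Level per kilobase of listed gene length (CPM per kilobase, log axis) of each member in stimulated libraries of both experiments, with points for libraries, a dash for the mean and bars for the SD (n = 3 on the left, n = 2 on the right). Gbp2b and Gbp2 head the order in both experiments, and the low end is held by Gbp6 and Gbp8 on the left and by Gbp6, Gbp8 and Gbp10 on the right.

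Stimulated iNOS KO cells were then set against stimulated wildtype cells, the comparison that asks what differs when iNOS cannot make nitric oxide. Of the 10 members, 7 were lower in iNOS KO cells and 0 were higher, where 24.2% of all genes were called lower and 24.2% higher. DESeq2 also called 7 lower and 0 higher, and at an unadjusted p under 0.05 edgeR had 8 lower and 0 higher. The 7 were Gbp2b, Gbp3 and Gbp5 on chromosome 3 and Gbp6, Gbp8, Gbp9 and Gbp10 on chromosome 5. The median log2 fold change was -0.83 over members and -0.04 over all genes tested. The differences of the 7 were 1.56-fold to 4.90-fold. With an absolute log2 fold change over 1 required as well, 3 members remained (Gbp2b, Gbp8 and Gbp10), against 8.87% of all genes called lower by that rule. The libraries of the 2 groups did not overlap in 9 of the 10 members, as in 53.2% of all genes.

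Gbp2b was at 2032, 1355 and 2250 CPM in stimulated iNOS KO replicates A, B and C, against 4235, 3938 and 4177 in wildtype. Every iNOS KO library was below every wildtype library, and the log2 fold change was -1.13 (SE 0.13, adjusted p = 1.7e-06), 2.19-fold lower. Gbp5 was at 874, 715 and 924 CPM against 1477, 1434 and 1471. It was 1.74-fold lower (log2 fold change -0.80, SE 0.084, adjusted p = 5.3e-07), with wildtype libraries within a narrow range. Gbp3 was at 564, 360 and 626 CPM against 866, 747 and 807, and was 1.56-fold lower (log2 fold change -0.64, SE 0.15, adjusted p = 0.0018). In all these genes replicate B held the lowest value.

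Gbp2, from the same cluster, was at 1336, 1313 and 1380 CPM in iNOS KO against 1396, 1428 and 1472 CPM in wildtype libraries. The groups did not overlap, yet the difference was slight and did not pass the test (log2 fold change -0.09, SE 0.082, adjusted p = 0.38). Gbp2 lies next to Gbp2b, shares with it the letters of the ISRE core shown above, and was the member that differed least. Gbp7 was at 576, 303 and 613 CPM against 730, 618 and 627 CPM, so only replicate B was far below wildtype. Its log2 fold change of -0.40 (SE 0.18) had an adjusted p of 0.071, and the call depended on the setting: it was called lower with the replicate block (adjusted p = 0.0063), without the count filter (adjusted p = 4.2e-07) and without iNOS KO replicate A (adjusted p = 0.045) or C (adjusted p = 0.014).

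On chromosome 5, Gbp8 differed most of all members. It was at 8.93, 4.90 and 8.18 CPM in iNOS KO against 39.0, 31.4 and 38.3 CPM in wildtype libraries (139, 68 and 137 against 563, 465 and 552 counts), 4.90-fold lower (log2 fold change -2.29, SE 0.18, adjusted p = 4.6e-08). Gbp4, whose listed span overlaps that of Gbp8, was at 1698, 1195 and 1756 CPM against 1852, 1760 and 1699. For Gbp4 the groups overlapped and the log2 fold change was -0.19 (SE 0.11, adjusted p = 0.19). Gbp9, which overlaps both, was at 116, 78.5 and 126 CPM against 241, 197 and 196, and was 1.98-fold lower (log2 fold change -0.98, SE 0.14, adjusted p = 1.1e-05). Genes of the same stretch thus ran from no called difference to the largest of the 10.

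Gbp10 was at 70.2, 49.7 and 87.1 CPM in iNOS KO against 157, 138 and 137 CPM in wildtype libraries, 2.08-fold lower (log2 fold change -1.06, SE 0.15, adjusted p = 2.9e-05). Gbp6 was at 27.3, 15.6 and 26.4 CPM against 47.9, 37.0 and 41.3, 1.81-fold lower (log2 fold change -0.86, SE 0.18, adjusted p = 0.00092). Both have been implicated in the control of bacteria in macrophages, and both share most of their sequence windows with other genes, as described above. Neither pair of groups overlapped.

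Without stimulated iNOS KO replicate B, the same 7 members were called lower. Their log2 fold changes were then -0.94 for Gbp2b, -0.44 for Gbp3, -0.70 for Gbp5, -0.65 for Gbp6, -2.08 for Gbp8, -0.80 for Gbp9 and -0.87 for Gbp10. That of Gbp7 was -0.15, still not called. Summed macrophage markers were at 12731 to 13566 CPM in stimulated iNOS KO against 8154 to 9140 CPM in stimulated wildtype libraries, while of the 10 markers 4 were called higher, 3 lower and 3 not called (median log2 fold change 0.05), and their part in the result was not tested. Neutrophil markers summed to 42.4 to 48.0 against 37.3 to 64.7 CPM with Ltf, S100a9 and Ly6g at 0 in both groups, fibroblast markers to 11.5 to 17.1 against 3.78 to 5.13 CPM with Col3a1 and Thy1 at 0, lymphocyte markers to under 1 CPM, and dendritic cell markers to 2.81 to 4.06 against 1.25 to 2.08 CPM with Siglech at 0.

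**Figure D3:**
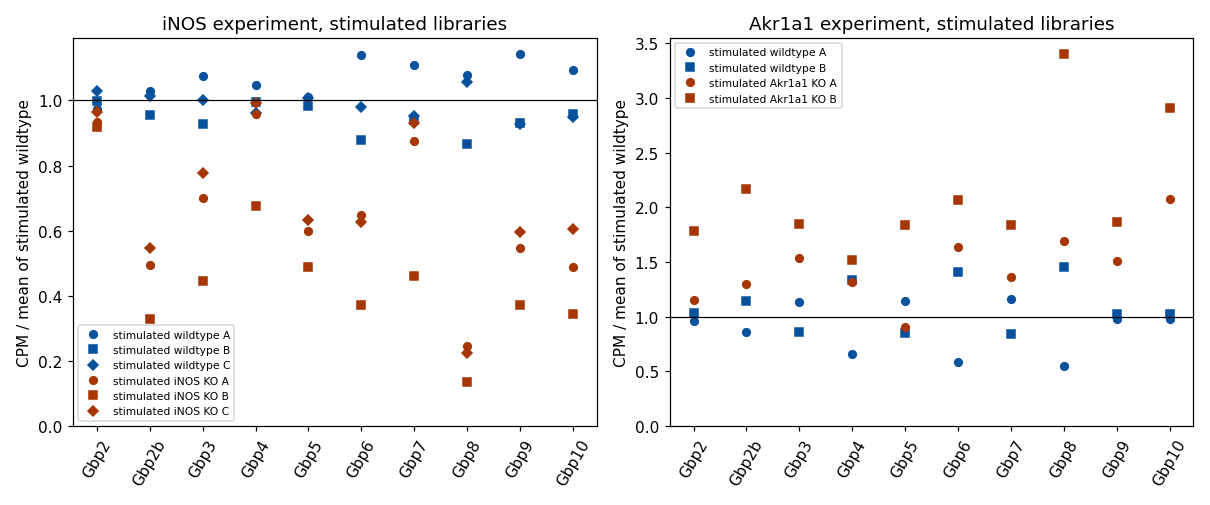
CPM of each member in each stimulated library, divided by the mean of the stimulated wildtype libraries of that experiment (linear axis from 0, black line at 1, symbols for replicate letters). On the left, iNOS KO replicate B (1355 CPM for Gbp2b) lies below A and C (2032 and 2250 CPM) and all 3 lie far below 1 for Gbp8, while Gbp2 stays near 1. On the right, Akr1a1 KO replicate B is the highest library for every member.

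**Figure D4:**
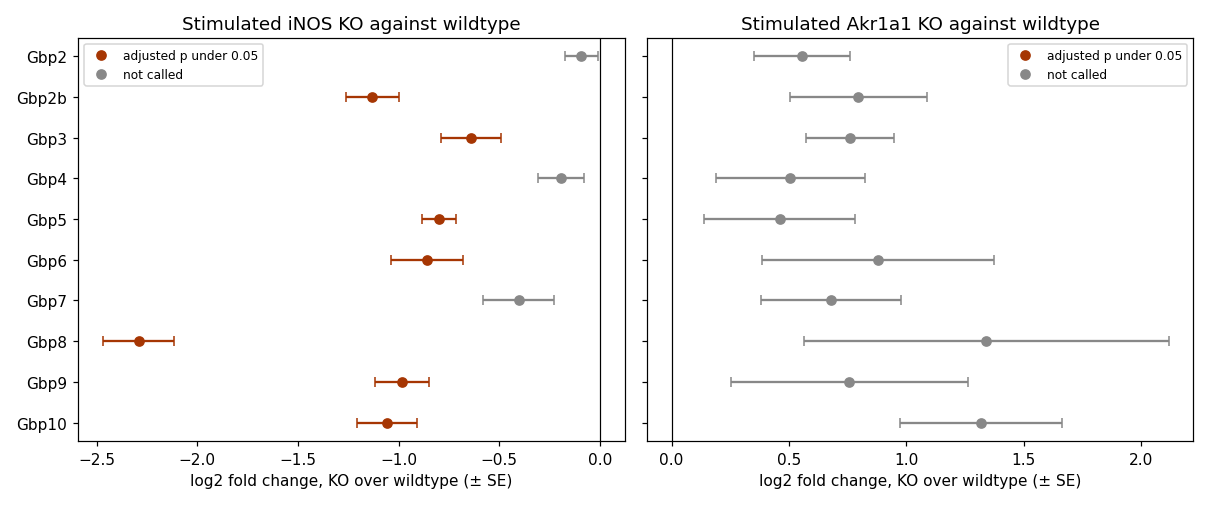
Log2 fold change of each member, stimulated KO over stimulated wildtype, with bars for its SE, in both experiments. The 7 members called in the iNOS experiment are in orange, from -0.64 (Gbp3) to -2.29 (Gbp8), and the 10 grey values of the Akr1a1 experiment run from 0.46 to 1.34.

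Without stimulation, iNOS KO and wildtype cells could hardly be compared. No member was called in either direction by edgeR (1.88% of all genes were called higher and 4.09% lower), 0 had an unadjusted p under 0.05, and DESeq2 called 0 as well. Over each group of 3 libraries the members summed to between 0 and 47 counts, so a difference was not detectable at this depth for most of them. The interaction of genotype and stimulation, which asks whether the rise itself differed, was called for 0 members in edgeR and 0 in DESeq2, with 0 at an unadjusted p under 0.05 in either, against 20% of all genes called with a higher and 15.4% with a lower rise in iNOS KO cells. For Gbp2b its estimate was -1.08 (SE 0.75, adjusted p = 0.30) and for Gbp2 -0.04 (SE 0.49, adjusted p = 0.99). Leaving out unstimulated wildtype replicate B, which held the only count of Gbp5 in that group, brought the interaction of Gbp5 to -4.11 with an adjusted p of 0.04995. With so few unstimulated counts, the interaction could detect little for most members. It could therefore not decide whether the fold rise of the 7 members lower in stimulated iNOS KO cells differed between genotypes.

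In the Akr1a1 experiment the question was the same for Akr1a1, an aldo-keto reductase that also reduces S-nitroso-coenzyme A, a product of nitric oxide. Stimulation again raised all 10 members, both in wildtype RAW264.7 cells (18.5% of all genes were called higher) and in Akr1a1 KO cells (19.8%). The largest adjusted p among members was 0.011 in wildtype and 0.012 in Akr1a1 KO cells, in both cases for Gbp8. In wildtype cells the family took 0.148% and 0.179% of counts after stimulation, and in Akr1a1 KO cells 0.231% and 0.295%. Before stimulation it took at most 0.000379%. The median log2 fold change over members was 8.97 in wildtype and 10.78 in Akr1a1 KO cells, against -0.03 and 0.02 over all genes. Only the groups of this experiment were tested against each other, since the 2 experiments have separate libraries and, by the labels, different doses of IFNγ.

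Gbp2 went from 0 and 0.021 CPM to 279 and 300 CPM in wildtype cells, with 1 count in both unstimulated libraries together (a ratio of 17561, 3151 to 693685). Gbp2b went from 3 counts to 254 and 337 CPM, a ratio of 6052 (2070 to 29351). Gbp4 had 0 counts in all 4 unstimulated libraries of both genotypes and was at least 11773-fold higher in stimulated wildtype cells and at least 11012-fold higher in stimulated Akr1a1 KO cells. Gbp3 and Gbp7 rose 299-fold (212 to 438) and 334-fold (247 to 464) in wildtype cells, and 571-fold (369 to 935) and 883-fold (559 to 1491) in Akr1a1 KO cells. In Akr1a1 KO cells Gbp2 rose 2545-fold (1235 to 6331) from 7 counts and Gbp2b 3577-fold (1643 to 9749) from 6. Gbp5 had 0 counts there before stimulation and was at least 2148-fold higher after it, and for Gbp6 and Gbp10, likewise at 0, these bounds were 108-fold and 248-fold. In wildtype cells Gbp6, also at 0, was at least 88.8-fold higher, Gbp5 went from 2 to 3418 counts (a ratio of 3300, 913 to 27264) and Gbp10 from 3 to 224 counts (144, 48.7 to 705). Gbp9 rose 97.5-fold (76.9 to 125) and Gbp8 13.6-fold (8.91 to 21.6) in wildtype cells. Unstimulated wildtype replicate B held 69 counts of Gbp9, 25 of Gbp8 and 40 of Gbp7, where replicate A held 1, 0 and 2. Replicate B was the deeper library, with 44583327 counts in total against 12361217. In CPM, Gbp9, Gbp8 and Gbp7 were at 1.48, 0.54 and 0.86 there, against 0.073, 0 and 0.15 in replicate A. Unstimulated Akr1a1 KO replicates A and B had Nos2 at 54.7 and 38.1 CPM and Gbp9 at 1.10 and 0.10 CPM. Wildtype replicate B is one of those called stimulated in its title. Its Nos2 was at 30.7 CPM against 4.21 CPM in replicate A and 4155 and 5899 CPM in the stimulated pair. Without it, all 10 members were still called higher in wildtype cells, but the folds and their order changed. The fitted log2 fold change of Gbp9 then went from 6.77 to 10.46 and that of Gbp7 from 8.51 to 10.61, past the 8.51 of Gbp3 and, for Gbp7, past its 9.75 in Akr1a1 KO cells, so neither a low place of Gbp9 in the order nor a larger rise of Gbp7 in Akr1a1 KO cells is shown. Gbp8, Gbp10, Gbp5, Gbp2b and Gbp2 had 0 counts in replicate A, and their fitted values without replicate B (9.49 for Gbp8, from 3.91) depend on the prior count of the fit. Gbp8 also moved with the stimulated library left out, to 4.47 without wildtype replicate A and 3.06 without B. In Akr1a1 KO cells all 10 were still called without unstimulated replicate B, the other library with such a title, and the log2 fold change of Gbp9 went from 8.74 to 7.43, that of Gbp2b from 11.70 to 10.65 and that of Gbp8 from 3.52 to 4.61. Without unstimulated replicate A they were 10.76 for Gbp9 and 12.73 for Gbp2b. In Akr1a1 KO cells the call for Gbp8 was lost without unstimulated replicate A (adjusted p = 0.081) or without stimulated replicate B (adjusted p = 0.072), and its rise there was 10.3-fold (7.77 to 13.9), with 7 and 48 counts in the unstimulated libraries. Gbp9 rose 467-fold (292 to 803) in Akr1a1 KO cells.

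Per kilobase, Gbp2 (115 ± 5.9 CPM per kilobase, SD, n = 2), Gbp2b (105 ± 20.8), Gbp4 (74.7 ± 35.6), Gbp3 (49.6 ± 9.6) and Gbp7 (42.4 ± 9.6) formed a chain in stimulated wildtype RAW264.7 cells in which each overlapped the next. Gbp9 (21.8 ± 0.68) and Gbp5 (16.8 ± 3.5) came below without overlap. Gbp10 (1.85 ± 0.060), Gbp8 (1.54 ± 0.99) and Gbp6 (0.70 ± 0.41) were lowest, and Gbp8 overlapped each of the others, which did not overlap each other. In stimulated Akr1a1 KO cells the order was Gbp2b (182 ± 64.2) and Gbp2 (170 ± 51.7), which overlapped, then Gbp4 (106 ± 10.7), Gbp3 (84.0 ± 10.8), Gbp7 (68.0 ± 14.0), Gbp9 (36.9 ± 5.5) and Gbp5 (23.2 ± 11.1). Lowest were Gbp10 (4.61 ± 1.1), Gbp8 (3.93 ± 1.9) and Gbp6 (1.30 ± 0.22). Gbp2b made up 15.7% and 17.2% of member counts in stimulated wildtype cells.

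Stimulated Akr1a1 KO cells were compared with stimulated wildtype cells. All 10 members had a positive log2 fold change, from 0.46 for Gbp5 to 1.34 for Gbp8 (median 0.76, and 0.01 over all genes), but edgeR called 0 of them (smallest adjusted p = 0.20), where 0.0869% of all genes were called higher and 0.199% lower. At an unadjusted p under 0.05 there were 4 higher (Gbp2, Gbp2b, Gbp3 and Gbp10) and 0 lower. The libraries did not overlap in 8 of 10 members, against 38.4% of all genes. DESeq2 called 2 members higher, Gbp3 (adjusted p = 0.023) and Gbp10 (adjusted p = 0.019), and edgeR without the minimum of 10 counts called 7. The result thus depended on the tool and on the filter.

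Gbp10 was at 14.9 and 20.8 CPM in stimulated Akr1a1 KO against 6.99 and 7.32 CPM in wildtype libraries (log2 fold change 1.32, SE 0.35, adjusted p = 0.24). Gbp3 was at 249 and 299 CPM against 184 and 140 CPM (log2 fold change 0.76, SE 0.19, adjusted p = 0.20). Gbp2b was at 385 and 641 CPM against 254 and 337 CPM, and Gbp2 at 335 and 518 against 279 and 300 CPM. In both the Akr1a1 KO libraries lay above the wildtype ones, with replicate B far above A. Gbp4 was at 738 and 851 CPM against 371 and 748 CPM, and Gbp5 at 102 and 206 against 128 and 95.4 CPM, so these groups overlapped. Gbp7 was at 326 and 437 against 276 and 200 CPM, and Gbp9 at 171 and 211 against 110 and 115 CPM. The low members Gbp8 (8.98 and 18.1 against 2.90 and 7.71 CPM) and Gbp6 (6.83 and 8.66 against 2.45 and 5.91 CPM) also lay higher in both Akr1a1 KO libraries than in either wildtype library. Their wildtype libraries differed from each other by more than those of Gbp9 did. Without Akr1a1 KO replicate B the log2 fold change of Gbp5 turned to -0.14 (adjusted p = 0.89). Without wildtype replicate A that of Gbp4 was 0.06. Summed macrophage markers were at 5294 and 9240 CPM in the stimulated Akr1a1 KO libraries against 12230 and 12440 CPM in wildtype, and neutrophil markers at 255 and 429 against 128 and 145 CPM, with Elane, Ltf and S100a9 at 0 in wildtype. Of 9 macrophage markers tested, 0 were called higher, 1 lower and 8 not called (median log2 fold change -0.41), where 0.199% of all genes were called lower. None of the 5 neutrophil markers tested was called. Fibroblast markers summed to at most 2.28 against 3.87 CPM, lymphocyte markers to under 1 CPM and dendritic cell markers to at most 3.64 against 3.10 CPM. The part of these in the members' values was not tested.

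Without stimulation no member was called in the Akr1a1 experiment (0.23% of all genes were called higher and 0.353% lower). Gbp2 alone had an unadjusted p under 0.05 in edgeR, with 3 and 4 counts in Akr1a1 KO against 0 and 1 counts in wildtype libraries, and DESeq2 called 0 members with 2 under that unadjusted p. The interaction was called for 0 members (0.00511% of all genes had a higher and 0.0153% a lower rise in Akr1a1 KO cells), with 2 under an unadjusted p of 0.05 in edgeR, Gbp10 and Gbp2, in opposite directions. DESeq2 called 0 members too, with 1 under that p.

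Genes of the IFNγ response were looked at next, from receptors, kinases and transcription factors to interferons and feedback inhibitors. On stimulation of wildtype cells in the iNOS experiment, 17 of 19 tested were higher and 2 lower, against 32.4% of all genes called higher and 28.5% lower. In iNOS KO cells 17 were higher and 1 lower (27.3% of all genes higher and 24.6% lower). Ciita, the master regulator of MHC class II genes, and Irf1 rose most, with log2 fold changes of 8.44 and 7.34 in wildtype cells. In stimulated iNOS KO against wildtype cells, 3 of 19 were higher and 6 lower, where 24.2% of all genes were called in each direction, with a median log2 fold change of -0.18. Irf1, which binds ISREs, was at 919 against 1595 CPM (log2 fold change -0.79, adjusted p = 5.5e-07). Irf8, a factor of the macrophage lineage, was higher, at 846 against 423 CPM (log2 fold change 1.00, adjusted p = 4.5e-09). The largest differences were those of Ifnb1 and of Ciita. Ifnb1, which encodes interferon-β, was barely detected in either group, at 0.61 against 0.16 CPM (log2 fold change 1.88, adjusted p = 0.028). Ciita was at 8.79 against 21.3 CPM (log2 fold change -1.29, adjusted p = 5.6e-06). DESeq2 called 2 genes of this list higher and 6 lower. Socs1, which damps the signal, was at 134 against 112 CPM and was not called (adjusted p = 0.088).

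Genes listed as partners on the same vacuoles numbered 22 tested. The list names immunity-related GTPases, ubiquitin-like conjugation genes of autophagy, and Sqstm1, Trim21, Traf6, Rnf213, Ube2l6 and Isg15. On stimulation of wildtype cells 21 were higher and 1 was not called, led by Iigp1 and Tgtp2, and in iNOS KO cells 20 were higher and 2 were not called, led by Iigp1 and Tgtp1. Of all genes, 32.4% in wildtype and 27.3% in iNOS KO cells were called higher. Tgtp1 and Tgtp2 are near-identical copies whose counts are uncertain. Between the stimulated genotypes 14 of 22 were lower and 4 higher (median log2 fold change -0.33, against the same 24.2% each way). Igtp, also called Irgm3, was at 856 against 2088 CPM (log2 fold change -1.29, adjusted p = 1.9e-10) and Iigp1 at 1090 against 2127 CPM (log2 fold change -0.96, adjusted p = 0.0011).

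Of 17 tested genes of inflammasomes and pyroptosis, through which Gbps act on cell death, 14 were higher and 1 lower on stimulation of wildtype cells and 15 and 1 in iNOS KO cells. Shares over all genes were 32.4% higher and 28.5% lower in wildtype and 27.3% and 24.6% in iNOS KO cells. Nos2 and Il1b, which encodes interleukin-1β, rose most in both. Set against stimulated wildtype cells, stimulated iNOS KO cells had 8 of 17 lower, the knocked-out Nos2 among them, and 5 higher (median -0.27, against 24.2% each way). Casp4, the gene of caspase-11, was at 123 against 203 CPM (log2 fold change -0.72, adjusted p = 0.00084), and Aim2, a sensor of cytosolic DNA, at 74.4 against 92.7 CPM (log2 fold change -0.32, adjusted p = 0.044). The largest differences were those of Nos2 itself, the knocked-out gene, and of Apol9b, at 35.2 against 6.00 CPM (log2 fold change 2.55, adjusted p = 3.5e-09). Pycard was called lower too, but at 0.21 against 0.76 CPM (adjusted p = 0.029) it was barely detected in either group.

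The enzymes that prenylate proteins and trim the prenylated end did not move as one. Of 6 tested, 1 was higher and 3 lower on stimulation of wildtype cells, and 1 lower with 5 not called in iNOS KO cells. Over all genes, stimulation gave 32.4% higher and 28.5% lower in wildtype and 27.3% and 24.6% in iNOS KO cells. Between stimulated genotypes 2 of 6 were higher and 2 lower, against 24.2% of all genes each way, with the largest differences in Zmpste24 (93.8 against 64.4 CPM, log2 fold change 0.54, adjusted p = 0.00012) and Rce1 (25.9 against 36.8 CPM, log2 fold change -0.51, adjusted p = 0.00029). The list of other large GTPases names Gbp11 and Gm43302. Since 63.6% of the 100-base windows of Gbp10 and 59% of those of Gbp6 occur in Gm43302, it is not cleanly separate from these members. Other large GTPases, 17 tested, showed 11 higher and 2 lower on stimulation in wildtype cells and 10 and 5 in iNOS KO cells. Comparing the stimulated genotypes, 10 of 17 were lower and 1 higher (median -0.51, against 24.2% each way). Mx1, an antiviral dynamin-like protein, was the higher one, at 7.98 against 2.08 CPM (log2 fold change 1.94, adjusted p = 5.0e-07), and Gbp11, which is outside the 10 members, was at 5.26 against 14.9 CPM, 2.83-fold lower (adjusted p = 2.0e-05). In RAW264.7 cells Gbp11 had at most 21 counts in a library, and the pseudogene Gbp2-ps had 1 count in 1 library of the 20.

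Between the unstimulated iNOS genotypes, 1 of 19 tested IFNγ genes was called higher and 3 lower. Of the vacuole partners 3 of 22 were lower, and of the inflammasome genes 3 of 17, the knocked-out Nos2 among them. Of all genes, 1.88% were called higher and 4.09% lower. The other lists had 0 calls in edgeR (1 lower at an unadjusted p under 0.05) or DESeq2. The largest of the called differences were in Usp18 and Irf8, in Igtp and Map1lc3b, and in Nos2 and Il1a. The rise on stimulation itself, by the interaction, was smaller in iNOS KO cells for 9 vacuole partners and larger for 2 (15.4% of all genes had a smaller and 20% a larger rise), with the largest difference in Irgm2 (interaction -0.82, adjusted p = 0.00037). It was smaller for 4 other large GTPases and larger for 0 in edgeR (0 at an unadjusted p under 0.05) and 0 in DESeq2 (1 at that p), led by Dnm1 (interaction -1.66, adjusted p = 4.1e-07), a dynamin of membrane fission. For IFNγ genes it was smaller for 4 and larger for 2 (Irf8, interaction 1.47, adjusted p = 1.0e-08), for inflammasome genes smaller for 2 and larger for 5, and for prenylation enzymes smaller for 1 and larger for 2. The inflammasome list includes the knocked-out Nos2, which had 0 counts in unstimulated iNOS KO libraries, and it was not counted without that gene.

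Without stimulated iNOS KO replicate B, between the stimulated genotypes 2 IFNγ genes were higher and 8 lower, 5 vacuole partners higher and 14 lower, 5 inflammasome genes higher and 7 lower, 2 prenylation enzymes higher and 2 lower, and 1 other large GTPase higher and 9 lower. The interaction without that library was called smaller for 25 genes of the 5 lists and larger for 12, against 20 and 11 with it. Inflammasome genes with a smaller rise went from 2 to 4, and 1 other large GTPase had a larger rise. Shares over all genes were not computed without that library, so these counts cannot be set against them.

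**Figure D5:**
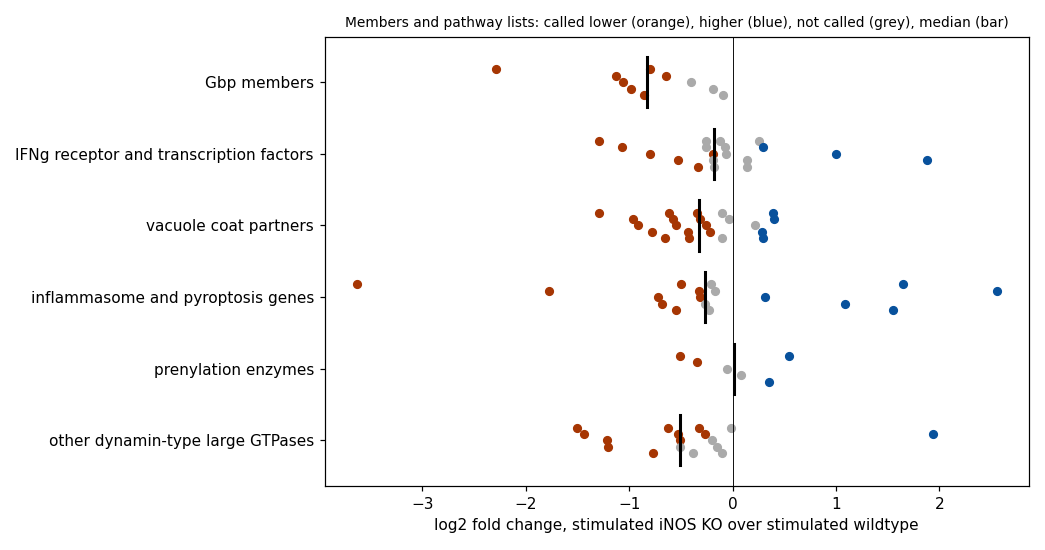
Log2 fold change, stimulated iNOS KO over stimulated wildtype, of the 10 Gbp members and of the genes of 5 pathway lists, with 1 point per gene, black bars at the median, and colours for genes called lower (orange), called higher (blue) or not called (grey). The median was -0.83 over members, -0.51 over other large GTPases and 0.01 over prenylation enzymes, and no member lies above 0. The list of other large GTPases names Gbp11 and Gm43302, which shares sequence with Gbp6 and Gbp10.

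In the Akr1a1 experiment these lists rose on stimulation too, with 16 of 19 IFNγ genes higher and 1 lower in wildtype cells and the same numbers in Akr1a1 KO cells (19.2% and 19.4% of all genes were called lower), with the largest log2 fold changes in Socs3 (6.55 and 7.09). Vacuole partners were higher in 18 and 20 of 22, inflammasome genes in 12 and 11 of 16 and other large GTPases in 7 and 8 of 16. Of all genes, 18.5% in wildtype and 19.8% in Akr1a1 KO cells were called higher. Of the 6 prenylation enzymes 1 was higher in each genotype, Icmt. Between stimulated Akr1a1 KO and wildtype cells edgeR called 0 genes over all 5 lists, with 7 higher and 3 lower at an unadjusted p under 0.05, and DESeq2 called 2 higher. Between the unstimulated groups edgeR called 0, with 1 higher and 1 lower at that unadjusted p, and DESeq2 called 1 higher and 1 lower. The interaction was called for 0 in edgeR and 0 in DESeq2, with 1 higher and 0 lower at that unadjusted p in each. Irf1 was at 234 against 215 CPM and Casp4 at 240 against 155 CPM (log2 fold change 0.63, adjusted p = 0.27).

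Genes that followed the family most closely were named by the Pearson correlation of their log2 CPM with the mean log2 CPM of the members, which describes these libraries only, since all points share the large step of stimulation. Over the 12 libraries of the iNOS experiment and 8566 other protein-coding genes, among the highest values were those of Iigp1 (0.9995), Ptgs2 (0.9992), Irgm2 (0.9991) and Dtx3l (0.9991). Iigp1 and Irgm2 encode immunity-related GTPases and Ptgs2 the inducible cyclooxygenase. Over the 8 libraries of the Akr1a1 experiment and 8848 genes the highest were those of Dpf2 (0.9988), Dtx2 (0.9987), Acod1 (0.9982), Slc15a3 (0.9978) and Tapbpl (0.9978). Acod1 encodes the enzyme that makes itaconate. Ptgs2 and Acod1 were at 3813 and 6030 CPM in stimulated wildtype cells of their experiment. No gene is named for both experiments.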

How the data were processed

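RNA was measured by polyA RNA-seq in 12 libraries of the iNOS experiment and 8 of the Akr1a1 experiment. The authors deposited raw read counts per gene, with gene length and position, 1 table per experiment; the submitters' processing notes name CASAVA, STAR and mm10, without roles, and the counting tool and its strand setting are not given in the sources used here. Every column matched 1 library. The table positions of the members differ from those of the same genes on GRCm38, so no build is named for them. Whether the 12 libraries are BMDM (labels) or RAW264.7 cells (study) was not settled.

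Counts were tested per experiment with edgeR 4.0.16 in R 4.3.3 (TMM, 1 mean per group, quasi-likelihood test, 2-sided, genes with at least 10 counts in total, Benjamini-Hochberg adjustment over 18691 and 19569 genes, threshold 0.05). All 10 members passed the filter. CPM are counts per 1000000 of the TMM-scaled library size, and SE is the log2 fold change over the root of its F statistic. Fold intervals came from summed counts (exact binomial, 95%), and with 0 counts a floor of 3 was used for the group. The number of counts sets the precision, at 11876719 to 44583327 per library, and intervals cover counting error only, since reads without molecular identifiers are not independent molecules. The study calls its 3 libraries per group biological replicates, for cells it names RAW264.7. If they are BMDM, the marrow was pooled by genotype. The labels name no separate animals or cultures, so p-values measure the spread between these libraries, which may be technical. Alternatives were DESeq2 1.42.0, its size factors, other filters, fits of only the compared groups, a replicate block, a fold limit and each library left out, and, added after seeing the data, pathway list counts in DESeq2 and without stimulated KO replicate B. Fits were tested on simulated data. Scripts in Python 3.11.15 searched sequence and drew plots (matplotlib 3.10.9).

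The members, the pathway and marker lists and the alternatives were chosen with earlier results of these data known. All members were named, list genes by size of change among those called together with Irf1, Irf8, Socs1, Casp4, Aim2 and Pycard, and likeness to the members by correlation. Values of 1 gene that these rules name are not reported here. Of the comparisons with 3 libraries a group, only that of stimulated with unstimulated iNOS KO cells had all same-letter deviations correlated above 0.1 (0.404, 0.497 and 0.121), and there the replicate block also called all 10 members higher.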

Additional observations from a re-analysis of the deposited data

How the results depend on the processing

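Of the recomputed counts of called members, 253 stayed within 1.5 times the reported count and 7 did not. The 253 include counts that were 0 in both, such as those of members lower on stimulation. In stimulated iNOS KO against wildtype cells, the 7 members called lower became 3 with an absolute log2 fold change over 1 required, through that limit's construction. In stimulated Akr1a1 KO against wildtype cells, the 0 called higher became 2 with DESeq2 and 7 without the count filter. Without that filter, 1 member (Gbp8) was called higher and 1 (Gbp9) lower between the unstimulated RAW264.7 groups, and 1 (Gbp9) had a higher rise in Akr1a1 KO cells. The interaction in the iNOS experiment, 0 lower, ranged from 0 to 1 over the libraries left out, the 1 being Gbp5 without unstimulated wildtype replicate B. The cause of these changes was not tested. Of the values of single members, 1 reversed: Gbp5 in stimulated Akr1a1 KO against wildtype RAW264.7 cells, to -0.14 without Akr1a1 KO replicate B (range -0.14 to 0.85 over the libraries left out). All 80 levels moved by less than 1 SD with DESeq2 size factors.

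Replicate letters did not pair the libraries across either experiment, and the labels do not say what a letter stands for. Deviations of same-letter libraries correlated at -0.52 to 0.50 (median -0.022) in the iNOS and -0.17 to 0.44 (median -0.0090) in the Akr1a1 experiment. Within a genotype, unstimulated and stimulated libraries of a letter correlated at 0.438 in wildtype and 0.103 in Akr1a1 KO RAW264.7 cells. With 2 libraries per group the deviations of A and B mirror each other, so both letters necessarily give the same value. With the replicate block, 10 of 10 members stayed higher on stimulation in every genotype, 8 were lower in stimulated iNOS KO cells (Gbp7 joined, adjusted p = 0.0063 in edgeR) and 0 were called in the other comparisons. A crossed block for the Akr1a1 KO letters, chosen after seeing the data, gave 0 calls in both states.

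Few counts limit the unstimulated comparisons: for 6 members in each experiment, fits of only the unstimulated groups could not be made. The Akr1a1 experiment has 2 libraries per group, and edgeR called no member between its genotypes. Gbp6 and Gbp10 cannot be cleanly separated.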
